A study of Mus musculus with 12 samples.

Results

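The genotype effect was described over all 12 liver arrays of the study, 6 from livers labelled as a Met knockout against 6 from control livers. Arrays were assigned by the start of their titles (MKO or CTRL), 12 of 12 in the series were used, and both HGF states were pooled within a genotype. The contrast therefore used none of the HGF labels. Control mice carried loxP-flanked Met alleles without the deletion in hepatocytes. Knockout mice had been bred from the same floxed line to a Cre transgene, either Alfp-Cre, which is driven by albumin and alpha-fetoprotein control elements and acts in the embryo, or Alb-Cre, which is driven by the albumin promoter and acts after birth. Which of these transgenes a given knockout array carried is not in the labels, and neither is the strain, sex or age of the mice. In each genotype 3 arrays were labelled as stimulated with 2 µg of recombinant mouse HGF, given intraperitoneally 2 hours before, and 3 as unstimulated. The labels leave unclear whether the unstimulated mice received NaCl and whether arrays with the same number came from 1 animal, so the p-values below measure only the spread between these arrays. The array numbers were 1 to 6 in controls and 7 to 12 in knockouts, so that genotype cannot be told apart from array order, nor from any other difference between the mouse lines that the labels do not record.

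Met is the receptor tyrosine kinase that binds hepatocyte growth factor (HGF). In liver, stellate and endothelial cells supply HGF and hepatocytes carry the receptor, and signalling through Gab1, Grb2, Erk, Akt and Stat3 supports hepatocyte survival and liver regeneration. Hepatocytes also divide their work by position: those around the central vein hold glutamine synthesis and much of drug metabolism, and those around the portal tract hold the urea cycle.

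Values are probe set intensities processed with GCRMA, on the scale log2(intensity + 1), and differences are knockout minus control on that scale. The 6683 probe sets with a value of at least 4 on at least 3 arrays were tested with limma, and genes below 0.05 after Benjamini-Hochberg adjustment over all of them are called changed. Correlations between arrays were 0.927 to 0.992 among controls, 0.922 to 0.99 among knockouts and 0.914 to 0.987 between genotypes, and none of the first 6 principal components separated the genotypes. Along the first component (62.3% of the variance) the controls followed their HGF labels, at -26.1 to -17.8 without and 24.4 to 36 with HGF. Not all knockouts did. Knockout arrays 1 and 3 without HGF, at -26.3 and -31.9, and array 3 with HGF, at 33.1, followed their labels. Knockout array 2 without HGF lay at 33.7, among the stimulated controls. Knockout array 2 with HGF lay at -32.6, beside the unstimulated ones, and knockout array 1 with HGF at -6.7. Only knockout array 2 without HGF and array 3 with HGF lay among the stimulated controls, so the pooled genotypes were not balanced along this component. Values given below for each labelled HGF state rest on these labels and are not a clean split of stimulated from unstimulated knockout livers. The arrays looked like liver: 27 of 27 measured hepatocyte genes passed the filter, and Alb, the serum albumin gene, lay between 14.43 and 14.54 on every array. Pancreatic acinar genes were nearly absent, with 1 of 14 above the filter. Xist, which is expressed in females, lay between 1.94 and 2.11 on every array, and the Y-linked Eif2s3y between 7.05 and 7.84.

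The level of 2 genes differed between the genotypes after adjustment, Rad51b, which rose in the knockout livers, and L3hypdh, which fell. These were 0.0299% of the 6683 tested probe sets, 0.015% in each direction. A wider set of differences was small, and was described by whether the arrays overlapped. In 50 probe sets, 0.748% of those tested, all 6 knockout arrays lay above or below all 6 control arrays, 25 in each direction. In 13 of these, 0.195%, the range within each genotype was also smaller than the difference between the genotype means; these are called stable here. Among the 50, differences ran from 0.15 to 3.51 upward, with 5 of at least 1, and from 0.10 to 1.18 downward, with 2 of at least 1. When each array was centred on its own median, 57 probe sets did not overlap, 36 higher and 21 lower in the knockout. At an unadjusted p under 0.05 there were 579 probe sets, 8.66%, of which 273 were higher (4.08%) and 306 lower (4.58%) in the knockout. In 39 tested probe sets every control array, and in 24 every knockout array, was under the filter level of 4, so that they were tested only because of the other genotype; 5 of the 50 without overlap and 1 of the 13 stable ones were of this kind. The median difference over all tested probe sets was 0.00 and 50.2% were higher in the knockout.

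The counts depended on single arrays. The number of called genes was 1 without control array 1 or 3 labelled without HGF, without control array 3 labelled with HGF, or without knockout array 1 labelled with HGF. It was 5 without control array 1 with HGF, 7 without knockout array 2 with HGF and 4 without knockout array 3 with HGF. Leaving out an array can add probe sets without overlap but cannot remove them, and the 50 became 77 without control array 3 without HGF, 100 without control array 1 with HGF, 76 without knockout array 2 without HGF, 77 without knockout array 1 with HGF and 103 without knockout array 3 with HGF. The 13 stable probe sets became 20, 28, 26 and 25 without, in turn, control array 3 without HGF, control array 1 with HGF, knockout array 2 with HGF and knockout array 3 with HGF.

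**Figure D1:**
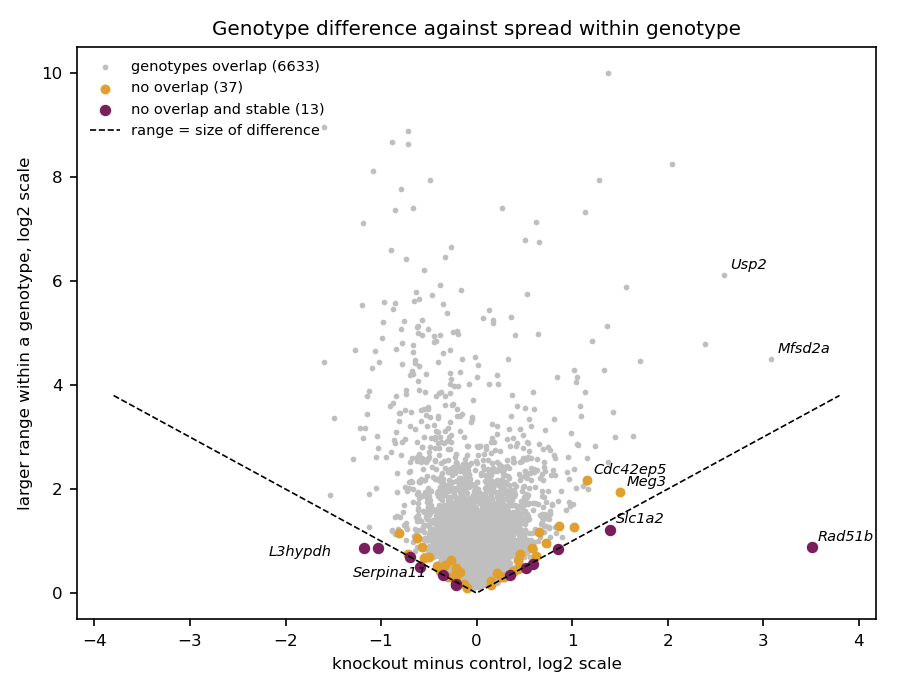
Each point is 1 of the 6683 tested probe sets, with the knockout minus control difference on the x axis and the larger of the 2 within-genotype ranges on the y axis, both on the log2 scale. Rad51b stands apart at a difference of 3.51, and the 13 stable genes lie below the dashed lines, where the range equals the difference.

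Rad51b encodes a protein that acts in homologous recombination repair. Its control values were 2.67 at the lowest, 3.06 at the median and 3.39 at the highest, and its knockout values were 6.21, 6.49 and 7.10. The control values were all under the filter level of 4, so that Rad51b was tested only because of its knockout values, and the lowest knockout array stood 2.83 above the highest control array. The difference was 3.51 (SE 0.16, limma adjusted p = 2.57e-07). Its size, SE and limma p rest in part on control values near background, where GCRMA compresses signals. Against the filter level of 4 in place of these control values, the knockout mean was at least 2.55 higher. The difference was 3.45 among the arrays labelled without HGF and 3.57 among those labelled with HGF. An exact two-sided permutation test over the 924 ways to split the arrays gave p = 0.00216 for Rad51b, the smallest it can give. The absence of overlap fixes this value for each of the 50 probe sets, so it is not separate support for them.

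L3hypdh encodes trans-L-3-hydroxyproline dehydratase, an enzyme of hydroxyproline breakdown. It measured 5.83, 6.26 and 6.48 (lowest, median and highest) in the controls and 4.49, 5.09 and 5.36 in the knockouts. The genotypes were separated by 0.47. The difference was -1.18 (SE 0.15, limma adjusted p = 0.0201), with -1.26 among arrays without HGF and -1.09 among those with HGF. The call was lost, with adjusted p values of 0.0687, 0.0761, 0.0526, 0.0866 and 0.0874, when control arrays 1 or 3 without HGF, control arrays 2 or 3 with HGF or knockout array 1 with HGF were left out, while the difference stayed between -1.18 and -1.12 in these 5 fits.

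Both genes lie on chromosome 12. The bases just upstream of their RefSeq start sites (GRCm38.p6) are shown because these are the only genes called; Rad51b is shown at 1 of its 2 listed starts, chr12:79297132-79297281 on the plus strand, and L3hypdh at chr12:72085314-72085463 on the minus strand. Neither the 150 bases shown nor the remainder of the 300-base window held the interferon motif described further on, which is the only motif searched, so that no base is in capitals.
Rad51b: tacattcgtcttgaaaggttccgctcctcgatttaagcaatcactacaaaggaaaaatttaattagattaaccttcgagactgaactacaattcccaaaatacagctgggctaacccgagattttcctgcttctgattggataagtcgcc
L3hypdh: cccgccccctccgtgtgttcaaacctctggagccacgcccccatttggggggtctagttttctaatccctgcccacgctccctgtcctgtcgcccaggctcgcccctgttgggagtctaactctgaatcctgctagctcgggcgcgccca

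Chromosome 12 also held the genes with the next 2 smallest p values. Serpina11, a secreted serine protease inhibitor family member expressed in liver, measured 9.46, 10.06 and 10.33 in the controls and 8.56, 8.97 and 9.40 in the knockouts. All 6 knockout arrays were lower, by a gap of 0.06. The difference was -1.04 (SE 0.16, adjusted p = 0.0805). Ifi27, an interferon-induced gene, measured 9.08, 9.31 and 9.59 in the controls and 8.52, 8.77 and 8.90 in the knockouts. Its knockout arrays were again all lower, with a difference of -0.59 (SE 0.10, adjusted p = 0.0805). Meg3, a maternally expressed imprinted non-coding RNA, measured 2.63, 3.08 and 3.37 in the controls and 3.55, 4.62 and 5.49 in the knockouts. All knockout arrays were higher, and it too was tested only because of them, but they spread over a wider range than the difference of the means, 1.50, so that Meg3 was not among the stable genes. With control values near background this difference is given without a test, and the knockout mean was 0.56 above the filter level. Single arrays moved Serpina11 and Ifi27 across the threshold: the adjusted p of Serpina11 was 0.0187 without control array 2 without HGF and 0.045 without knockout array 3 with HGF, and that of Ifi27 was 0.0304 without control array 1 with HGF.

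Of the 6644 tested probe sets with a place in the RefSeq gene table, 233 lay on chromosome 12, 3.51%. It held 5 of the 50 probe sets without overlap, which was 2.15% of its tested genes beside 0.748% of all, and 5 of the 20 with the smallest p. Both counts include Rad51b and Meg3, which were tested only because of their knockout arrays. The chromosome's share at an unadjusted p under 0.05 was 8.15%, beside 8.66% of all. In the order of tested genes on the chromosome L3hypdh was number 97, Rad51b 118, Ifi27 180, Serpina11 187 and Meg3 204, so that 20, 61, 6 and 16 tested genes lay between neighbours in this order. None of the 50 probe sets lay next to another of the 50. Among the 20 tested genes nearest to Rad51b, 10 on each side, none was without overlap, and differences ran from -0.29 to 0.31. Among the 20 nearest to L3hypdh, Dhrs7, a dehydrogenase gene, stood out at 0.98 (unadjusted p = 0.0047, adjusted p = 0.335), with overlapping arrays. Of the 20 genes nearest to Ifi27, 5 had an unadjusted p under 0.05 (Lgmn, Itpk1, Ddx24, Serpina6 and Serpina11). Of the 20 nearest to Serpina11, 3 did (Ddx24, Ifi27 and Serpina6), beside 8.66% of all tested. These windows overlap, and each of these genes, picked for its small p, is counted as a neighbour of the other. Whether the genes around them form a cluster was not tested.

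**Figure D2:**
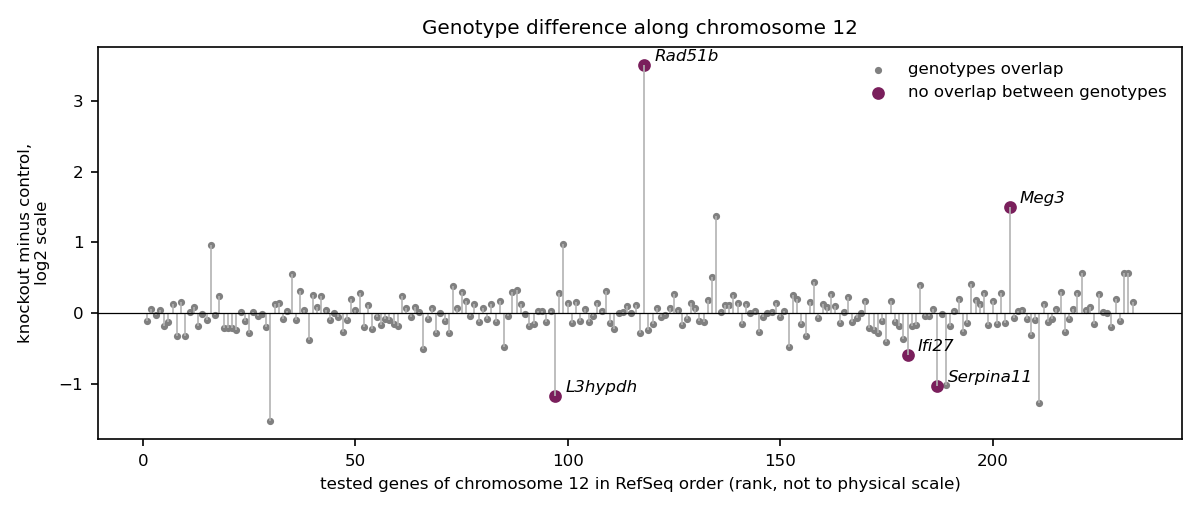
The knockout minus control difference (log2 scale) of the 233 tested genes of chromosome 12, drawn in their RefSeq order as ranks and not to physical scale. The 5 labelled genes are those whose genotypes did not overlap, and they are separated by 6 to 61 tested genes.

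Of the 20 probe sets with the smallest p, 17 were without overlap and 11 were stable, and 12 were higher in the knockout. Of the 13 stable genes 4 lay on chromosome 12 and 9 elsewhere. None of these 9 was called.

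Slc1a2 encodes a glutamate transporter that in liver is found in the hepatocytes next to the central vein. It measured 5.38, 6.12 and 6.60 in the controls and 6.72, 7.56 and 7.84 in the knockouts. Every knockout array was higher, by a gap of 0.13. The difference was 1.39 (SE 0.24, adjusted p = 0.115), and it was 1.43 without HGF and 1.36 with HGF. Without knockout array 2 with HGF it was 1.54 and passed the test (adjusted p = 0.0333).

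Other enzymes were among them. Gsta2, a glutathione S-transferase, measured 10.21, 10.67 and 11.06 in the controls and 11.16, 11.43 and 11.94 in the knockouts, with a difference of 0.86 (SE 0.19, adjusted p = 0.218). Cyp4a10, a fatty acid omega-hydroxylase and a target of PPAR-alpha, measured 11.45, 11.63 and 11.94 against 11.99, 12.19 and 12.32, a difference of 0.52 (SE 0.10, adjusted p = 0.157). Cyp1a2, which oxidises caffeine and many aromatic amines, measured 11.79, 12.001 and 12.13 against 12.25, 12.34 and 12.44, a difference of 0.35 (SE 0.07, adjusted p = 0.200). All 6 knockout arrays were higher for each of these 3 enzymes. The Gsta and Cyp4a families hold near-identical copies, and their probe sets may read more than 1 member.

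Mbnl2, a regulator of RNA splicing, measured 7.63, 8.01 and 8.19 in the controls and 8.35, 8.58 and 8.74 in the knockouts. Its knockout arrays were all higher, with a difference of 0.59 (SE 0.11, adjusted p = 0.143). Asb13, a SOCS box protein of ubiquitin ligases, measured 7.11, 7.33 and 7.73 against 6.26, 6.71 and 6.95, with a difference of -0.70 (SE 0.15, adjusted p = 0.218). Its difference was -0.93 without HGF and -0.47 with HGF, in all knockout arrays below the controls. The difference was -0.35 for Tmem263, a membrane protein gene, -0.22 for C4bp, which restrains the complement cascade, and -0.22 for Ccm2, an adaptor known from vascular malformations. These 3 had adjusted p values of 0.200, 0.261 and 0.316, and SEs of 0.07, 0.06 and 0.06.

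**Figure D3:**
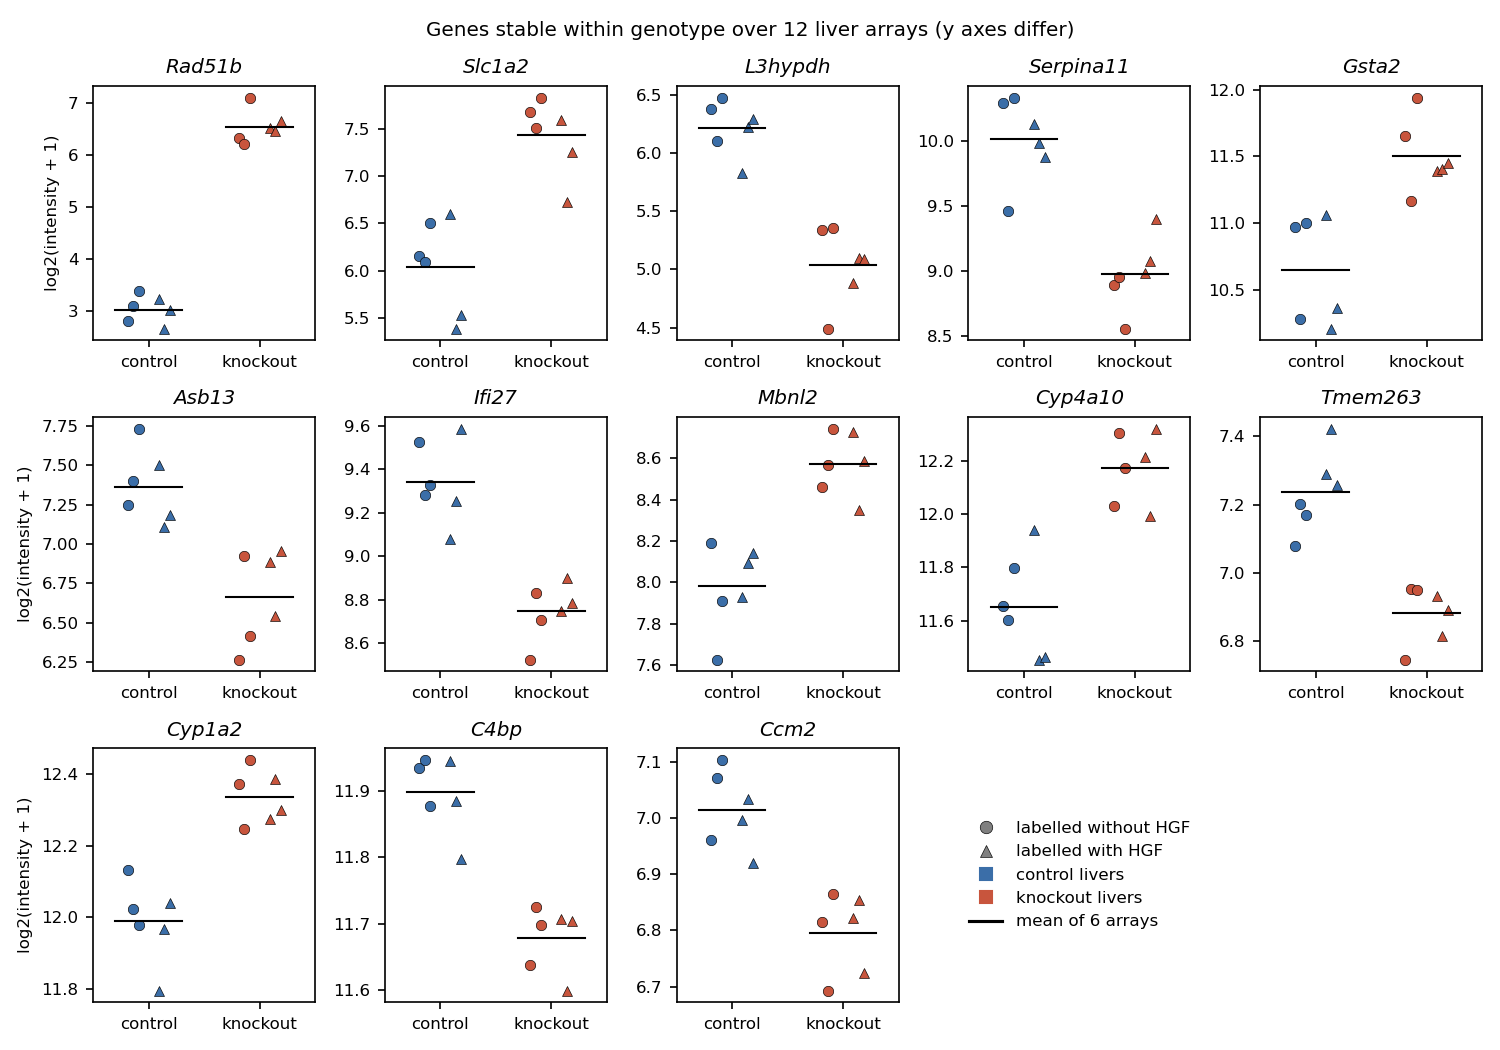
Levels of the 13 stable genes on every array, as log2(intensity + 1), with circles for arrays labelled without HGF, triangles for those labelled with HGF and a bar at the mean of 6 arrays; the y axes differ between panels. In every panel the 6 knockout arrays lie wholly above or wholly below the 6 control arrays, and the gap is widest for Rad51b at 2.83.

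Stability within a genotype could also be read as the same direction in both labelled HGF states. Over all tested probe sets 3368 of 6683, 50.4%, had the same sign of the genotype difference in the arrays without HGF and in those with HGF. The 50 probe sets without overlap had the same sign in both states in 50 cases, as their selection requires. The genotype by HGF interaction was called for 0 of 6683 probe sets in limma, with 724 at an unadjusted p under 0.05, and the lowest adjusted interaction p among the genes named here was 0.371. Genes with opposite differences in the 2 labelled states entered the pooled contrast as a mean, in which the differences cancelled only in part. Tnfaip3, an NF-kappaB target chosen here after its values were seen, differed by label by 3.08 without HGF and by -4.86 with HGF. Its pooled difference was -0.89, with values of 2.15 to 10.82 in the controls and 2.44 to 10.22 in the knockouts. As some knockout arrays did not follow their labels on the first component, its differences by label are not a clean split by HGF state. The pooled contrast carries no information on such genes beyond their mean.

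**Figure D4:**
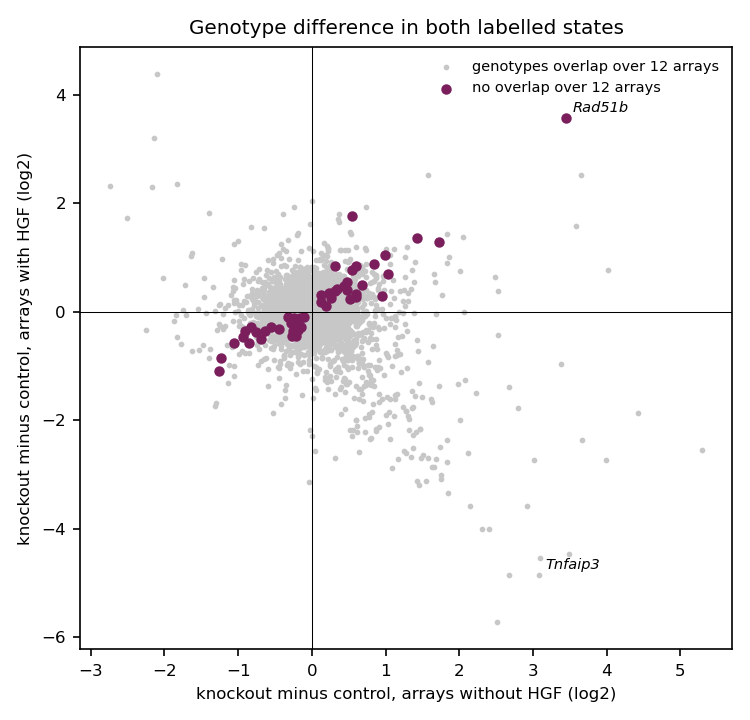
The genotype difference among arrays labelled with HGF (y axis) against that among arrays labelled without HGF (x axis), both on the log2 scale, for the 6683 tested probe sets. The 50 probe sets without overlap lie in the quadrants of equal sign, Rad51b at 3.45 and 3.57, while genes such as Tnfaip3 lie in the quadrant of opposite sign.

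The targeted gene itself did not separate the genotypes. Met measured 6.59, 6.78 and 7.02 in the controls and 6.29, 6.87 and 7.40 in the knockouts. The ranges overlapped throughout, with a difference of 0.10 (SE 0.17, 95% interval -0.27 to 0.47, limma adjusted p = 0.882). Where the probes of this set lie relative to the deleted part is not stated in the labels, and a probe set outside the deleted part would read the remaining transcript, so that Met did not check the genotype labels. Liver tissue also holds cells other than hepatocytes. Here and below, fewer cells of a type and less RNA per cell cannot be told apart in whole tissue.

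Genes that supply, release or carry the HGF signal were mostly close to the control level. Of 30 members on the pathway list 18 were tested, none was called, and 13 of the 18 were lower in the knockout (median -0.12, beside 0.00 for all tested). Hgfac, the serum protease that activates HGF, measured 10.08, 10.22 and 10.36 in the controls and 9.31, 9.65 and 10.33 in the knockouts. Most knockout arrays were lower but the highest lay within the control range, and the difference was -0.52 (SE 0.14, adjusted p = 0.316). Without knockout array 2 with HGF the difference was -0.64 and passed the test (adjusted p = 0.0394). Plxnb1, a semaphorin receptor that can associate with Met, lay at 3.54 to 4.52 in the controls and at 2.97 to 3.71 in the knockouts, all of which were under the filter level. Spint2, an inhibitor of HGF-activating proteases, differed by 0.17 (adjusted p = 0.576). The adaptors Gab1 and Grb2 differed by 0.31 and -0.06 and Stat3 by -0.39, all with overlapping arrays. Hgf itself was below the filter, at 3.24 to 3.58 in the controls and 3.24 to 4.62 in the knockouts.

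The chromosomal neighbours of Met were also described. Among the 40 tested genes nearest to Met, 20 on each side, 7 had an unadjusted p under 0.05, beside 8.66% of all tested, none was without overlap, and the median difference was 0.01. The widest were Asns, asparagine synthetase, at 1.38, Pdk4, a kinase that restrains pyruvate dehydrogenase, at -1.29 and Irf5, an interferon regulatory factor, at -0.89. The other 4, Pon2, Slc25a13, St7 and Tnpo3, differed by at most 0.31 in size.

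Genes of pericentral hepatocytes were higher in the knockout as a group. Of 20 tested members 17 were higher (median 0.36, beside 0.00 for all tested), 8 were higher and none lower at an unadjusted p under 0.05, and 3 were higher without overlap, namely Slc1a2, Cyp1a2 and Glul. None was called, and the study-wide share for higher genes was 4.08% at this unadjusted level and 0.374% for no overlap. Glul, glutamine synthetase and the defining enzyme of the innermost pericentral cells, measured 10.72, 10.88 and 11.004 in the controls and 11.10, 11.24 and 11.51 in the knockouts. All its knockout arrays were higher, by a difference of 0.38 (SE 0.08, adjusted p = 0.218). Oat, ornithine aminotransferase, differed by 0.66 (adjusted p = 0.257, and 0.0333 without knockout array 2 with HGF). Cyp2c37, a cytochrome of arachidonic acid metabolism, differed by 0.77, Lect2, a secreted hepatokine, by 0.53, Gulo, the last enzyme of vitamin C synthesis, by 0.40 and Rgn, which acts a step earlier, by 0.24. Gulo measured 10.55, 10.75 and 11.05 against 11.04, 11.16 and 11.32, so that the ranges barely overlapped. Cyp2e1, which oxidises ethanol, differed by 0.08, and Avpr1a by -0.57, neither at an unadjusted p under 0.05.

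The summed linear intensity of the 26 measured pericentral members was 45310 to 54060 in the controls and 55790 to 64810 in the knockouts, without overlap. A linear sum is weighted toward abundant members, such as Oat, Rgn and Cyp1a2, so it is not separate support for the list. The sum of the 19 measured periportal members was 32990 to 39900 against 33000 to 38780. Among periportal genes 18 were tested, with a median of -0.04. At an unadjusted p under 0.05 there were 3 lower, beside 4.58% of all tested, and 1 higher, beside 4.08%. The lower ones were Cdh1, E-cadherin, at -0.75, Hal, histidine ammonia-lyase, at -0.34, and Sfxn1, a mitochondrial serine transporter, at -0.24. The higher one was Apoa4, an apolipoprotein, at 0.67. The urea cycle genes Arg1, Asl and Otc differed by -0.07, -0.05 and -0.02. With each array left out in turn, the count of pericentral genes higher at an unadjusted p under 0.05 was 8 to 10. The pericentral median was 0.17 among arrays labelled without HGF and 0.35 among those with HGF.

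Glutathione transferases, which conjugate glutathione to reactive compounds, were a list added after their values were seen. All 18 tested members were higher in the knockout (median 0.27), 8 at an unadjusted p under 0.05, beside 4.08% of all tested. Gsta2, Gstm2 and Gstm6 did not overlap, beside 0.374% of all tested in this direction. Gstm2 measured 9.37, 10.31 and 10.55 in the controls and 10.57, 10.88 and 11.04 in the knockouts, a difference of 0.65. Gstm6 measured 9.29, 9.93 and 10.15 against 10.33, 10.41 and 10.60, a difference of 0.58. For Gstm2 the lowest control array lay well below the other controls, the next of which was at 10.19. Gstt3 and Gstt2 differed by 0.74 and 0.71, Gsta4 by 0.45 and Gsta3 by 0.22. Gstm members share long stretches of sequence, so the probe sets are not 18 separate measurements with certainty. The count at an unadjusted p under 0.05 was 7 to 9 with single arrays left out. By label, the median was 0.03 without HGF and 0.44 with HGF.

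Other genes of foreign compound metabolism were less uniform. Of 46 tested members 34 were higher (median 0.12, by label 0.02 without HGF and 0.18 with HGF). At an unadjusted p under 0.05, 8 were higher, beside 4.08% of all tested, and none was lower. Gstk1, Gstt2 and Gstt3 stand in both lists. Sult1b1, a sulfotransferase, measured 7.12, 7.54 and 7.73 in the controls and 7.86, 8.13 and 8.82 in the knockouts, without overlap, and the difference was 0.72 (SE 0.16, adjusted p = 0.218). Ugt2b1, a glucuronosyltransferase of a family of close copies, measured 12.004, 12.09 and 12.21 against 12.22, 12.32 and 12.52, a difference of 0.25. Nqo1, a quinone reductase and textbook target of Nrf2, differed by 0.94 with overlapping arrays (adjusted p = 0.330). On the list of Nrf2 antioxidant genes, which shares members with the transferases, 16 of 28 tested genes were higher (median 0.03). At an unadjusted p under 0.05 there were 5 higher (Gsta2, Gsta3, Gsta4, Gstm2 and Nqo1), beside 4.08% of all tested, and 1 lower, beside 4.58%. The lower gene was Gclc, a subunit of the enzyme that starts glutathione synthesis, at -0.31.

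**Figure D5:**
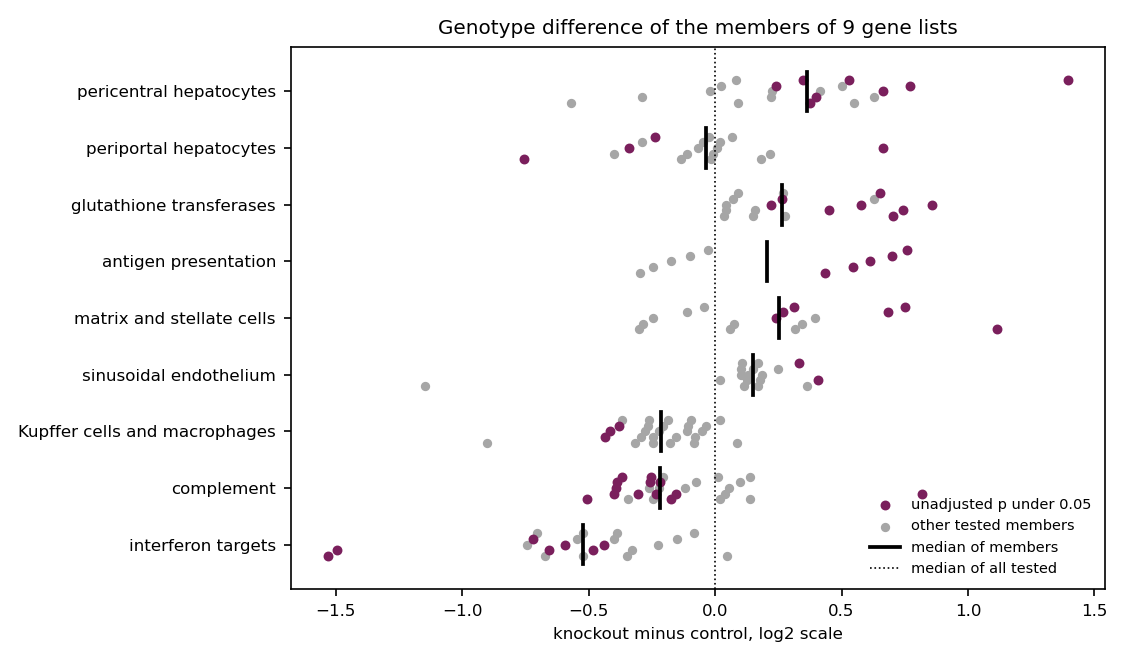
The knockout minus control difference (log2 scale) of every tested member of 9 gene lists, with members at an unadjusted p under 0.05 in the dark colour, a bar at each list's median and the dotted line at the median of all tested probe sets. The medians run from 0.36 for pericentral hepatocytes to -0.52 for interferon targets; no member was called at an adjusted p under 0.05, and the complement and glutathione transferase lists were added after values were seen.

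Interferon targets had lower values in most knockout arrays, and 7 of 21 tested members were lower at an unadjusted p under 0.05, beside 4.58% of all tested. In all, 20 of the 21 had a lower mean in the knockout (median -0.52). Ifi27 and Irf7 were lower without overlap, beside 0.374% of all tested. No interferon target was called. A lower mean was not particular to this list. It was seen in 18 of 20 NF-kappaB targets and chemokines (median -0.59, by label 1.49 without HGF and -2.08 with HGF). The same held for 23 of 27 acute phase genes (median -0.27, by label 0.25 and -0.64). Irf7, the transcription factor that amplifies type I interferon responses, measured 4.33, 4.62 and 5.09 in the controls and 3.58, 3.93 and 4.26 in the knockouts. The whole knockout range lay below the controls, with a difference of -0.72 (SE 0.15, adjusted p = 0.218). Rsad2, the antiviral protein viperin, measured 5.57, 6.63 and 6.97 against 4.15, 4.55 and 6.05 and differed by -1.53 (SE 0.37, adjusted p = 0.244). Ifit1, which binds foreign RNA, measured 5.39, 6.97 and 7.25 against 3.58, 4.64 and 6.94, with a wide overlap and a difference of -1.50 (SE 0.60, adjusted p = 0.535). For both, knockout array 2 without HGF and array 3 with HGF were within the control range, at 5.80 and 6.05 for Rsad2 and at 6.58 and 6.94 for Ifit1, and the other 4 knockout arrays were below all controls. These 2 arrays lay with the stimulated controls on the first component. Usp18, which removes ISG15 from proteins, differed by -0.66, Xaf1 by -0.48 and Bst2, the surface protein tetherin, by -0.44. The count of 7 was 4 without knockout array 1 without HGF and 12 without knockout array 3 with HGF, and 5 to 9 without any other single array. The list's median was -0.33 in the arrays without HGF and -0.76 in those with HGF.

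The promoters of 3 of these genes are shown because they carry the core of the interferon-stimulated response element, the sequence bound by interferon-activated factors. The motif searched was GAAA followed, after any 2 bases, by a further GAAA on either strand, in the window from 250 bases before to 50 after the RefSeq start (GRCm38.p6), where overlapping matches were allowed. It occurred in 943 of 27025 genes with a promoter in the table (3.49%), in 161 of 5297 tested genes (3.04%), in 8 of the 17 tested interferon targets with a promoter there (47.1%), and in 3 of the 5 with a promoter among the 7 lower at an unadjusted p under 0.05 (60.0%). Irf7 and Xaf1 were those of the 5 without a match, and Ifi27 and Usp18 had no promoter sequence available. A match is a description of the sequence only. The 150 bases before the start are printed on the gene's strand with matches in capitals, for Ifit1 at chr19:34640739-34640888 (plus strand), Rsad2 at chr12:26456453-26456602 (minus strand) and Bst2 at chr8:71537473-71537622 (minus strand), where the pair of matches overlaps.
Ifit1: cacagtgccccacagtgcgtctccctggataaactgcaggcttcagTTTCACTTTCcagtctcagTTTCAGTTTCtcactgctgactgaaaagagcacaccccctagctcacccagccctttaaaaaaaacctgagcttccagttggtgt
Rsad2: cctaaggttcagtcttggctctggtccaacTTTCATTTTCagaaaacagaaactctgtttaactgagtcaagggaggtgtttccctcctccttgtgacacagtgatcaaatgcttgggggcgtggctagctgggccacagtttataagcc
Bst2: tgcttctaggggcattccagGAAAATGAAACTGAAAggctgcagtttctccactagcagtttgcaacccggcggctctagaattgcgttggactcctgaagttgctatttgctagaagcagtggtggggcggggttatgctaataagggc

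Complement genes, another list added after their values were seen, were lower more often than higher. Of 27 tested members 19 were lower (median -0.22, by label -0.24 without HGF and -0.06 with HGF). At an unadjusted p under 0.05 there were 12 lower, beside 4.58% of all tested, and 1 higher. C4bp, C1s1 and Serping1 were lower without overlap, beside 0.374% of all. C1s1, a protease of the first complement component, measured 10.07, 10.29 and 10.50 in the controls and 9.67, 9.94 and 9.97 in the knockouts, a difference of -0.39 (SE 0.09, adjusted p = 0.231). Serping1, the inhibitor of that protease, measured 12.31, 12.39 and 12.41 against 11.91, 12.24 and 12.31, a difference of -0.17. Hc, component 5, differed by -0.51, C8a, a part of the membrane attack complex, by -0.40, and Cfi, which cleaves activated components, by -0.30. Cd59a, which blocks the membrane attack complex, differed in the opposite direction, by 0.82 (adjusted p = 0.261). The count of 12 was 7 without control array 3 with HGF. The list also holds C1qa, C1qb and C1qc, which in liver are macrophage genes, at -0.26, -0.22 and -0.24.

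No macrophage marker was called. Of 26 tested Kupffer cell and macrophage genes 24 had a lower mean in the knockout (median -0.21, by label -0.37 without HGF and -0.06 with HGF). At an unadjusted p under 0.05 there were 3 lower, beside 4.58% of all tested. These were Mpeg1, a pore-forming protein, at -0.44, Adgre1, the F4/80 antigen, at -0.41, and Csf1r, the receptor that macrophages need to survive, at -0.38. The Kupffer cell marker Clec4f differed by -0.32. The summed intensity of the 28 measured members was 6476 to 10030 in the controls and 5813 to 8320 in the knockouts, with overlap. The count of 3 was 1 without control array 1 without HGF, control array 2 with HGF, knockout array 1 without HGF or knockout array 2 with HGF, and 7 without control array 1 with HGF or knockout array 1 with HGF. It was 0 without both knockout arrays numbered 2. The part of macrophage content in the lower interferon and complement values was not tested.

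Antigen presentation split by class. Of 10 tested genes 5 were higher, all at an unadjusted p under 0.05, beside 4.08% of all tested. These were the class II genes H2-Aa at 0.76, H2-Eb1 at 0.70, H2-Ab1 at 0.61, H2-DMb1 at 0.54 and the invariant chain Cd74 at 0.44. The 5 lower ones were B2m, H2-D1, H2-K1, H2-Q10 and Tapbp, at -0.30 to -0.03. H2-Aa measured 7.58, 8.36 and 9.004 in the controls and 8.71, 9.15 and 9.41 in the knockouts, with overlap (SE 0.25, adjusted p = 0.410). The class II differences were wider among arrays labelled with HGF, 1.14 for H2-Aa, 1.02 for H2-Ab1 and 1.18 for H2-Eb1, than among those without, 0.38, 0.20 and 0.22, but the interaction was not called (adjusted p = 0.510, 0.461 and 0.415). The count of 5 was 3 without control array 3 without HGF, control arrays 2 or 3 with HGF, knockout array 2 without HGF or knockout arrays 1 or 3 with HGF. It was 1 without both knockout arrays numbered 2. H2 genes are alike in sequence, and their probe sets may read more than 1 member.

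Matrix and stellate cell genes were higher in part. Of 35 measured members 16 were tested, and 11 of them were higher (median 0.25). At an unadjusted p under 0.05, 6 were higher, beside 4.08% of all tested, and none was lower. By label the median was 0.39 without HGF and 0.02 with HGF. Mgp, matrix Gla protein, measured 2.16, 2.49 and 2.95 in the controls and 2.46, 3.90 and 4.52 in the knockouts, with every control array under the filter level and the knockout mean also under 4, so that its count among the 6 rests on values near background. Lum, lumican, differed by 0.75, and Acta2, the actin of activated stellate cells and smooth muscle, by 0.68. Reln, Bgn and Dcn differed by 0.31, 0.27 and 0.24, and the collagen Col3a1 by 0.40 and Col4a1 by -0.24, the last pair at unadjusted p values of 0.135 and 0.636. The summed intensity of the list overlapped, at 4900 to 6829 in the controls and 5406 to 7002 in the knockouts. Among 17 tested genes of the sinusoidal endothelium 16 were higher (median 0.15, by label -0.03 without HGF and 0.37 with HGF), with Lyve1 the exception at -1.15 (unadjusted p = 0.132). The 2 endothelial genes at an unadjusted p under 0.05, beside 4.08% of all tested for higher genes, were Bmp2 at 0.41 and Ehd3 at 0.33. They were no longer at that level without several of the single arrays.

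The 2 widest differences after Rad51b were not stable within genotype. Mfsd2a, a transporter of lysophospholipids, measured 2.83, 4.14 and 7.33 in the controls and 6.57, 7.54 and 8.54 in the knockouts. The ranges overlapped through the control arrays, which spread over 4.50, and the difference was 3.09 (SE 0.72, adjusted p = 0.231). Without control array 1 with HGF the difference was 3.66 and passed the test (adjusted p = 0.0384). Usp2, a ubiquitin protease with a daily rhythm in liver, measured 2.50, 2.70 and 3.56 against 2.20, 5.59 and 8.31, so that the knockout arrays ran from below to far above the controls. All its control arrays were under the filter level, and the knockout mean was 1.42 above that level. Nnt, the mitochondrial transhydrogenase and the gene with the smallest p among those that overlapped, measured 8.60, 9.49 and 9.88 against 8.07, 8.12 and 8.93, a difference of -1.12 (SE 0.21, adjusted p = 0.151) in which 1 knockout array lay within the control range. Nnt passed the test without control array 2 with HGF (adjusted p = 0.0299) and without knockout array 3 with HGF (adjusted p = 0.045).

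The remaining genes among the 20 smallest p values were each below 1 in size. Csad, an enzyme of taurine synthesis, measured 10.87, 11.16 and 11.43 in the controls and 9.71, 10.42 and 10.86 in the knockouts, a difference of -0.81 without overlap. Sulf2, an extracellular sulfatase that trims heparan sulfate, the matrix sugar on which HGF is held, measured 3.76, 4.01 and 4.22 against 4.28, 4.78 and 5.57, a difference of 0.86 without overlap. Sugct, a mitochondrial CoA-transferase, differed by 0.89, with a narrow overlap. All 3 had limma adjusted p values of 0.200 to 0.218.

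Further genes without overlap had small differences against smaller spreads. Anxa6, a calcium-binding membrane protein, measured 7.57, 7.62 and 7.70 in the controls and 7.71, 7.76 and 7.87 in the knockouts, a difference of 0.15. Hyal2, a hyaluronidase, differed by 0.44, Ivd, an enzyme of leucine breakdown, by 0.29, and Fbxo36 by 0.38. Irak1, a kinase of Toll-like receptor signalling, measured 6.83, 6.88 and 6.94 against 6.75, 6.78 and 6.80, and its difference of -0.10 was the only one of the 50 with an unadjusted p not under 0.05 (0.0662). Ankrd13a differed by -0.30 and Hccs, which attaches haem to cytochrome c, by -0.24.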

How the data were processed

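Total RNA from liver was hybridised to Affymetrix arrays. The authors deposited linear intensities per probe set, made with GCRMA (version not given in the sources used here), per the submitters' processing notes. This method brings arrays to a common distribution, so a shift shared by most genes would not show, and it compresses signals near background. Of 16539 deposited intensity rows, 64 array controls were left out. Symbols came from the platform annotation, 1 probe set per gene, and gene order from RefSeq GRCm38.p6.

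Intensities were transformed to log2(intensity + 1). The 6683 probe sets at 4 or more on at least 3 arrays were tested with limma 3.58.1 in R 4.3.3, 6 arrays against 6 with 10 residual degrees of freedom, two-sided, with Benjamini-Hochberg adjustment. The number of arrays limits the precision. The interaction came from a fit with 4 group means. Gene lists have counts and medians but no test. Named genes are Met and Hgf, the called genes, the 20 with the smallest p, the 10 without overlap in each direction with the largest difference relative to spread, and members of the pathway, Cre promoter and Y-linked lists; genes outside this rule were picked with their values known. The groups of genes and the comparison itself were chosen with earlier results of these data known. Alternatives covered the model, filter, constant, normalization, moderation, test and samples.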

Additional observations from a re-analysis of the deposited data

Results flagged for a closer look

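In 17 of 168 groups of 6 arrays, 1 array lay apart from the other 5 of its genotype (gap over range above Dixon's 95% critical value). Chance flags about 1 in 20 groups, and arrays that differ in HGF state were pooled here. Control array 1 with HGF was the lowest control for Fhit (3.86, nearest 4.39), Gstm2 (9.37, nearest 10.19), Aldh9a1 (10.06, nearest 10.31), Fbxo36 (4.04, nearest 4.38) and Alb (14.5, nearest 14.53). Control array 1 without HGF was the highest control for Nqo1 (5.53, nearest 4.5).

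Among knockouts, array 3 without HGF was the lowest for Serping1 (11.91, nearest 12.23), C1s1 (9.67, nearest 9.87) and Ddx54 (6.59, nearest 6.93), and the highest for Sult1b1 (8.82, nearest 8.19), Rgn (12.85, nearest 12.64) and Gsta4 (10.5, nearest 9.99). Array 3 with HGF was the lowest for Yap1 (5.88, nearest 6.43) and the highest for Nnt (8.93, nearest 8.21). Array 2 without HGF was the lowest for Eif2s3y (7.05, nearest 7.41), array 1 without HGF for Bst2 (8.69, nearest 8.96) and array 2 with HGF for Cyp2c37 (10.22, nearest 10.91).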

How the results depend on the processing

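The count of 2 called genes was 1 with 4 group means in place of 2 and in treat against a 1.2-fold change, 5 with array weights and 4 with a variance trend and robust moderation. It was 1 without both knockout arrays numbered 2, 1 without the 2 arrays whose description has an added letter, 5 in the arrays without HGF alone and 1 in those with HGF alone. The exact permutation test called 0 genes, since its smallest p of 0.00216 adjusts to 0.289 over 6683 probe sets; 579 had an unadjusted p under 0.05 in limma. With single arrays left out the count was 1 to 7. The 50 probe sets without overlap were 78 with no filter, 58 to 103 with single arrays left out, 113 without both knockout arrays numbered 2 and 80 without the lettered arrays. The 13 stable ones were 11 to 28, 39 and 26 under the last 3 of these. Same-numbered arrays did not deviate together (18 pairs, r from -0.829 to 0.286, 6 above 0.1). Knockout arrays that did not follow their HGF labels are among these pairs, so whether the numbers pair animals remains unclear. The replicate block gave 2 called genes. The number as a random block within genotype (correlation -0.319) gave 39, 21 higher and 18 lower, including both. A negative block correlation narrows the SE of the genotype difference, so these 39 are not read as further calls.

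Rad51b was called in every fit except the permutation test. L3hypdh was also lost with group means (adjusted p = 0.0787), treat (0.119), without both knockout arrays numbered 2 (0.0795) or the lettered arrays (0.0828), and in the arrays without (0.225) or with HGF alone (0.508). Serpina11 and Ifi27 passed with the stricter filter (both 0.0496) and with trend and robust moderation (both 0.0426). The difference of Met was -0.0047 to 0.2175 with single arrays left out. The sign turned for Met without knockout array 2 with HGF (-0.0047) and in the arrays with HGF alone (-0.0286), for Eif2s3y in the arrays with HGF alone (0.012), and for Alb, at 0 to 4 decimals, with quantile normalization. The causes were not tested. No list median changed sign under the alternatives run for medians, which did not include the arrays of a single labelled HGF state. In the arrays labelled without HGF several medians had the other sign. Examples were NF-kappaB targets and chemokines (1.49 against -0.59 pooled), neutrophils (0.80 against -0.67) and sinusoidal endothelium (-0.03 against 0.15). L3hypdh was not tested under the stricter filter. Levels under about 4 are close to background, which limits Rad51b and Meg3 in the controls and Mgp.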

Other observations

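Genes with a daily rhythm differed widely between single arrays. Among the tested core clock genes Cry1, a repressor of the clock, differed by -0.44 at an unadjusted p under 0.05 in limma. Arntl, which drives the rhythm, differed by -1.17 and Nr1d1, its repressor, by 0.71, neither at that level. Among the outputs Dbp and Tef differed by 2.05 and 1.14. Ciart, another repressor, lay at 2.70 to 3.59 in the controls and at 2.51 to 6.98 in the knockouts. Its control arrays, like those of Wee1, were all under the filter level, so no test is given for either. The sources used here give no time of day for any array.

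Of 24 tested genes of the endoplasmic reticulum stress response 19 were lower in the knockout (median -0.16), among them the chaperones Hspa5 at -0.27 and Hyou1 at -0.64, none at an unadjusted p under 0.05. Asns and Trib3, which respond to amino acid shortage, lay the other way, at 1.38 and 1.24 with unadjusted p values of 0.0076 and 0.0329 in limma. Of 29 tested PPAR-alpha and fat oxidation genes 22 were higher (median 0.10). At an unadjusted p under 0.05 there were 5 higher, beside 4.08% of all tested, and 1 lower, beside 4.58%. Cyp4a14 differed by 0.61, and the fatty acid transporter Cd36 by 0.50. The 5 were 8 without control array 1 with HGF or knockout array 3 with HGF, and 3 without control array 3 with HGF.

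Below the filter, a further 28 probe sets did not overlap between genotypes, with a median size of 0.224 and no level above 4.48 on any array, and 3 of the 28 lay on chromosome 12. The widest was Snapc1, a subunit of the snRNA-activating complex, at 3.51 to 4.01 in the controls and 2.66 to 3.42 in the knockouts (difference -0.93). Snhg11, a small nucleolar RNA host gene, lay at 2.65 to 3.21 against 3.44 to 4.48 (difference 0.81). Afp, the fetal albumin gene, lay at 2.41 to 2.89 in the controls and at 2.83 to 4.77 in the knockouts, with overlap. These levels are close to background, where GCRMA values are uncertain.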
